A study of Mus musculus with 19 samples.

Results

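Dnd1, Nanos3, Dppa3, Prdm1, Dazl, Sycp3 and Kit mark successive steps in the life of the mouse germ line, from its founding cells to meiosis, and were followed here in pluripotent cells that carry a deletable Foxd3 gene. They were taken by name, with every array probe annotated to any of them. Of the 7 genes, 6 had a named probe, 7 probes in all among the 25697 of the array, and 4 of the 6 (Dnd1, Nanos3, Dppa3 and Dazl) were detected often enough to be tested among 9422 genes. No named probe was annotated to Kit, and its level was not analysed here. 1719 probes carried no gene name. Those of them that passed the filter were each counted as a gene, and 8680 of the 9422 carried a gene symbol.

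Total RNA was measured on an Illumina bead array in 2 states of pluripotency: embryonic stem cells (ESC), grown with Lif and inhibitors of GSK and MEK (2i), and epiblast-like cells (EpiLC), which model the epiblast of the embryo after implantation. All 4 groups shared a serum medium (Knockout DMEM with 15% FBS). The tamoxifen groups received 1 µM for 36 h to delete Foxd3, a forkhead transcription factor, and the groups given ethanol served as wild-type controls. Each group held 3 samples. The 12 samples gave 19 arrays, since 7 were hybridized again in a second round. The other 5 were on 1 array each: the 3 EpiLC samples in ethanol and EpiLC tamoxifen sample 1, all in round 1, and ESC ethanol sample 1, in round 2. The driver of the recombinase, the cell clone and whether the samples were separate cultures are not given in the sources used here, so a p-value here reflects spread between samples that may be only technical. The controls received solvent, so the effect of tamoxifen itself and the effect of the deletion cannot be told apart.

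Primordial germ cells arise from epiblast cells under BMP and WNT signals. Prdm1 (Blimp1), Prdm14 and Tfap2c form the core of the factors that specify them, and Dppa3 (Stella) is an early mark of them that naive ESC also express. Nanos3 and Dnd1 are RNA-binding proteins that keep migrating germ cells alive and act on mRNA through the CCR4-NOT deadenylase. Kit is the receptor through which these cells receive a survival signal. Dazl, an RNA-binding protein, and Sycp3, a component of the synaptonemal complex, belong to later germ cells, and in somatic cells such late genes are held silent by DNA methylation and by repressors that include the Mga, Max and E2f6 complex.

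Because germline genes of the later kind are known for CpG-rich promoters, the 250 bases before the transcription start are shown for a member that changed with tamoxifen in both cell states (Nanos3), a member that differed between the cell states (Dazl) and a member that was never detected (Sycp3). They are RefSeq sequences of build GRCm38.p6, written 5′ to 3′ on the strand of the gene, with every CpG in capitals. Of the 7 genes, 5 matched an entry with such a sequence.
Nanos3, chr8:84176553-84176802, minus strand: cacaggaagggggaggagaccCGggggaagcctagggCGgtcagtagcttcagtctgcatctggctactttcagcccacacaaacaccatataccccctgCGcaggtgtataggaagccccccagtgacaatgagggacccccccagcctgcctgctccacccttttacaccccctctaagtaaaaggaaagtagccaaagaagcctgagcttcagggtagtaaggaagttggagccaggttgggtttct
Dazl, chr17:50293621-50293870, minus strand: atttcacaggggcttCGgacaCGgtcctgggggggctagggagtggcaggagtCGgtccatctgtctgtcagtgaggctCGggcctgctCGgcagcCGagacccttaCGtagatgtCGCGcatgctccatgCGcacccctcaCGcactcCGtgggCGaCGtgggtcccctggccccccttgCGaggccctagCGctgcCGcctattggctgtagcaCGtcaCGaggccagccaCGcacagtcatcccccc
Sycp3, chr10:88459337-88459586, plus strand: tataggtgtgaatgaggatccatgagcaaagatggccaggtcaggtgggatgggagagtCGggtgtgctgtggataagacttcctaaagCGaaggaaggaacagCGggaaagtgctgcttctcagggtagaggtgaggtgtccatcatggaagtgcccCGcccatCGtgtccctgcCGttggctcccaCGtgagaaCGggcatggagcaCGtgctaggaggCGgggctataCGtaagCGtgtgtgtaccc
Nanos3 held 3 CpG in this window, fewer than the median of 6 over 32841 promoters, and 29% of promoters had fewer. Dazl held 20 CpG (82% of promoters had fewer) and Sycp3 held 12 (66.5%). Prdm1 held 15 CpG in its window, and the entries for Kit held 17 and 18. 3 short motifs were counted on both strands: CACGTG, the E-box of Max complexes, TCCCGC, the E2f6 site, and TAAACA, a forkhead core. Sycp3 held 2 copies of CACGTG and 1 of TCCCGC, Prdm1 held 1 TAAACA, and each Kit entry held 2 TCCCGC. None of the 3 was in the Nanos3 or Dazl window, which says only that these letters are not there. Over all promoters, CACGTG occurred in 6.02%, TCCCGC in 16.9% and TAAACA in 12%, so a match describes these letters and not a bound site.

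The germ cell genes did not move as a block. Dnd1 fell with tamoxifen in ESC and rose in EpiLC, and Nanos3 rose in both. Dppa3 rose by 0.88 in ESC, a call close to the threshold, and its change of 0.76 in EpiLC did not pass the test without a block on the sample number. The tamoxifen effects on Dppa3 were not shown to differ between the cell states. No change of Dazl with tamoxifen passed the test in either state. Between the cell states, Nanos3 and Dazl were much lower in EpiLC than in ESC. Prdm1 and Sycp3 were at background on all 19 arrays. Values below are normalized log2 intensities, 1 per sample, and errors of changes are standard errors (SE) of a limma fit over the 12 samples, with p-values adjusted by the Benjamini-Hochberg method over all 9422 genes. A gene was called at an adjusted p under 0.05. Levels of different probes are not compared, since probes differ in how brightly they report the same amount of RNA. In bulk samples, fewer cells of a type and less RNA per cell cannot be told apart.

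**Figure D1:**
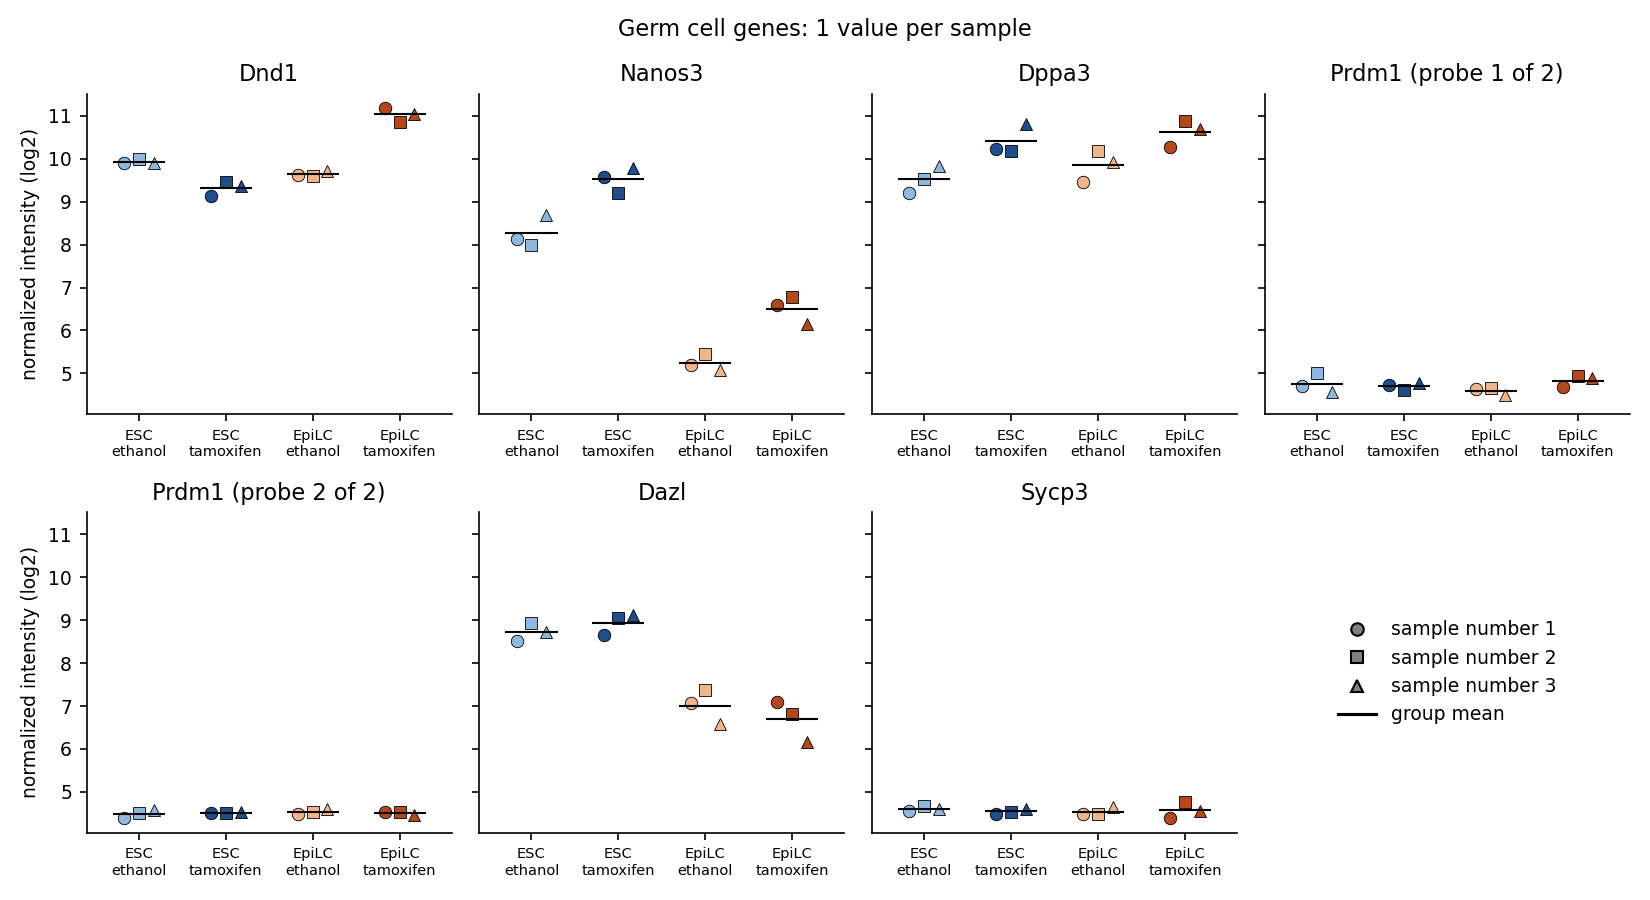
Normalized log2 intensity of the 7 named probes in each of the 12 samples; colours mark the 4 groups, symbols the sample number and horizontal lines the group means. Dnd1 is highest in EpiLC in tamoxifen, Nanos3 and Dazl are high in ESC, and both Prdm1 probes and Sycp3 lie at the floor in all groups.

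With tamoxifen in ESC, 3 of the 4 tested members were called, 2 higher and 1 lower, against 9.09% of all genes tested (5.58% higher and 3.50% lower). With tamoxifen in EpiLC, 2 of the 4 were called, both higher, against 6.91% of all genes (4.74% higher and 2.17% lower). Between EpiLC and ESC, 3 of the 4 were called in ethanol, against 56.3% of all genes, and 3 of the 4 in tamoxifen, against 56.5%, so a call between the cell states was common for any gene. For the difference of the tamoxifen effects, EpiLC minus ESC, 1 of the 4 was called, against 2.59%. The tamoxifen effects and the comparisons of cell states use the same samples, so they are not independent of each other. The members, gene lists and tests were chosen with earlier results of these data known. Counts beside these shares, and the ranks given below, are therefore descriptions and not tests of a set.

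Dnd1 (dead end homologue), whose protein is needed for germ cells to survive, had 1 probe, ILMN_2739675, detected on 19 of 19 arrays. In ESC in ethanol its values were 9.91, 9.99 and 9.91 in samples 1, 2 and 3 (mean 9.94, SD 0.05, n = 3). In ESC in tamoxifen they were 9.14, 9.47 and 9.37 (mean 9.33, SD 0.17, n = 3). Every ESC sample in tamoxifen lay below every ESC sample in ethanol, a separation that 15.8% of all genes tested showed in this direction. The log2 change was -0.61 (SE 0.11, adjusted p = 0.00474), a level 1.53-fold lower, and the 3 same-numbered pairs fell by 0.77, 0.52 and 0.54.

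In EpiLC the same probe moved the other way. The EpiLC samples in ethanol read 9.63, 9.59 and 9.73 (mean 9.65, SD 0.07, n = 3). Those in tamoxifen read 11.18, 10.87 and 11.06 (mean 11.04, SD 0.16, n = 3). The lowest tamoxifen sample was thus more than a log2 unit above the highest ethanol sample, and 12.1% of genes had groups that did not overlap in this direction. Dnd1 rose by 1.39 (SE 0.11, adjusted p = 0.000115), or 2.62-fold, and ranked 3 among the 9422 genes by p-value in this comparison. The differences of the 3 same-numbered pairs were 1.56, 1.28 and 1.33.

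The opposite directions were tested as an interaction. The tamoxifen effects on Dnd1 differed, EpiLC minus ESC, by 2.00 log2 units (SE 0.15, adjusted p = 0.000284), which was the smallest p-value of all 9422 genes for this difference. Both tamoxifen calls and the interaction call held under every alternative tried, with ESC changes from -0.68 to -0.48, EpiLC changes from 1.25 to 1.47 and differences from 1.77 to 2.08.

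The 4 group means of Dnd1 ran from ESC in tamoxifen (9.33) through EpiLC in ethanol (9.65) and ESC in ethanol (9.94) to EpiLC in tamoxifen (11.04), with no overlap between neighbours. In tamoxifen, EpiLC exceeded ESC by 1.71 (SE 0.11, adjusted p = 1.13e-07), and 33.1% of genes had groups that did not overlap in this direction. In ethanol, EpiLC were lower than ESC by a small amount (log2 change -0.29, SE 0.11, adjusted p = 0.0378), and 29.2% of genes had groups that did not overlap in this direction. That last call did not hold in 8 of 19 alternatives. Leaving out ESC ethanol sample 1, 2 or 3 gave adjusted p-values of 0.0628, 0.108 and 0.0692, and leaving out EpiLC ethanol sample 1 or 2 gave 0.0841 and 0.0992. The adjusted p was 0.0958 with arrays scaled to equal medians, 0.0528 with no filter on dim probes and 0.0643 on round 1 arrays.

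The raw bead intensities, before any normalization, gave the same directions, in both hybridization rounds for ESC and in round 1 for EpiLC, whose ethanol samples have no round 2 array. On round 1 arrays, Dnd1 read 809 to 962 in ESC in ethanol and 746 to 840 in ESC in tamoxifen, ranges that overlapped. On round 2 arrays it read 1068 to 1229 and 888 to 999.6, without overlap. In round 1, EpiLC in ethanol read 834 to 956 and EpiLC in tamoxifen 1676 to 2338. The standard error over the 26 to 51 beads of this probe was between 2.73% and 4.70% of the intensity, which covers the measurement on 1 array and not the spread between samples. In round 1, the ESC tamoxifen arrays were brighter as a whole than the ESC ethanol arrays (median intensity over all probes 166 to 176 against 149 to 154).

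**Figure D2:**
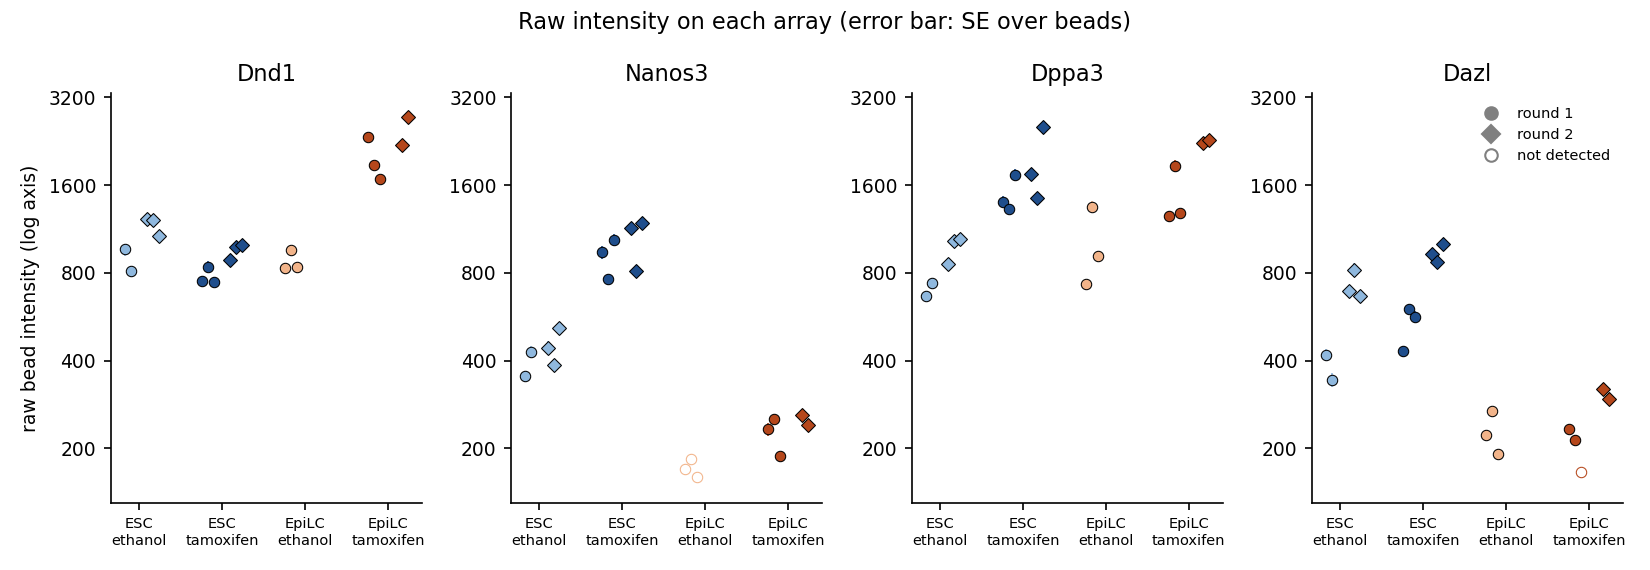
Raw bead intensity (log axis) of Dnd1, Nanos3, Dppa3 and Dazl on each of the 19 arrays, by group; circles are round 1, diamonds round 2, open symbols arrays with a detection p of 0.01 or more, and bars the standard error over beads. Dnd1 lies between 1676 and 2746 on the EpiLC tamoxifen arrays and at 1229 or lower on all others, and Nanos3 is not detected on the 3 EpiLC ethanol arrays.

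Nanos3, a zinc-finger partner of the deadenylase complex that protects early germ cells from apoptosis, had 1 probe, ILMN_2720493, detected on 16 of 19 arrays. ESC in ethanol had values of 8.13, 7.98 and 8.70 (mean 8.27, SD 0.38, n = 3). ESC in tamoxifen had 9.57, 9.20 and 9.79 (mean 9.52, SD 0.30, n = 3). The ESC groups did not overlap, as was so for 16.7% of genes in this direction. The rise was 1.25 (SE 0.22, adjusted p = 0.00501), or 2.38-fold, and the pairs differed by 1.44, 1.22 and 1.09.

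The 3 EpiLC samples in ethanol were not well above background for Nanos3. Their detection p-values were 0.0338, 0.0113 and 0.0589, with raw intensities of 170, 183 and 160 and normalized values of 5.19, 5.44 and 5.08. In EpiLC in tamoxifen the probe was detected on 5 of 5 arrays and the values were 6.58, 6.79 and 6.14 (mean 6.50, SD 0.33, n = 3). On the background-corrected scale the tamoxifen level was at least 1.69-fold higher, taking the lowest detected signal of each ethanol array as a floor, with an adjusted p of 0.00630 in the fit. This bound does not cover values that were not background-corrected, which gave smaller changes. The pairs differed by 1.39, 1.35 and 1.06, differences whose size depends on the background. The fitted change was 1.27 after background correction, 0.47 without it (adjusted p = 0.0432) and 0.69 from the authors' normalized table (adjusted p = 0.00442).

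For Nanos3 the difference between the tamoxifen effects in EpiLC and ESC was 0.02 (SE 0.31, adjusted p = 0.985), and its sign turned in 9 of 19 alternatives. It was -0.24 with arrays scaled to equal medians, -0.48 without background correction and -0.24 from the authors' table, so the 2 effects were not shown to differ in size. The tamoxifen calls themselves held under every alternative, with adjusted p-values up to 0.0471 in ESC and 0.0432 in EpiLC.

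Nanos3 had its order of levels set mainly by the cell state: EpiLC in ethanol, EpiLC in tamoxifen, ESC in ethanol, then ESC in tamoxifen, with no overlap between neighbours. In EpiLC, 12.1% of genes had tamoxifen samples all above the ethanol samples. In ethanol, ESC exceeded EpiLC at least 5.12-fold on the background-corrected scale (adjusted p = 3.52e-07), a bound that holds on that scale only. The log2 change of EpiLC against ESC was -1.44 without background correction and -1.68 from the authors' table. In tamoxifen, EpiLC lay far below ESC (log2 change -3.02, SE 0.22, adjusted p = 4.23e-07), and 30.6% of genes had groups that did not overlap in this direction. Without background correction the change in tamoxifen was -1.92, so the sizes, not the directions, depended on that step. Raw intensities gave the same picture: Nanos3 read 353 to 518 on ESC ethanol arrays, 759.9 to 1182 on ESC tamoxifen arrays and 188 to 260 on EpiLC tamoxifen arrays.

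Dppa3, a maternal factor that protects the methylation of imprinted loci in the zygote, had 1 probe, ILMN_1225176, detected on 19 of 19 arrays. ESC in ethanol gave 9.21, 9.54 and 9.83 (mean 9.53, SD 0.31, n = 3) and ESC in tamoxifen 10.24, 10.18 and 10.82 (mean 10.41, SD 0.35, n = 3). All ESC samples in tamoxifen were above all ESC samples in ethanol, as for 16.7% of genes. Dppa3 rose by 0.88 (SE 0.24, adjusted p = 0.0399), or 1.85-fold, and the pairs differed by 1.02, 0.64 and 0.99.

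This call was close to the threshold. It was lost without ESC ethanol sample 1 (adjusted p = 0.141) or 2 (0.0938), without ESC tamoxifen sample 1 (0.0685), 2 (0.0546) or 3 (0.133), and without EpiLC ethanol sample 3 (0.0517) or EpiLC tamoxifen sample 3 (0.0551). It was also lost on round 1 arrays (0.139) and with no filter on dim probes (0.0628). With the sample number as a block it was kept (adjusted p = 0.000854), and 21.6% of all genes were called in ESC under that block.

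EpiLC in ethanol gave Dppa3 values of 9.47, 10.18 and 9.93 (mean 9.86, SD 0.36, n = 3), and EpiLC in tamoxifen 10.29, 10.88 and 10.70 (mean 10.62, SD 0.31, n = 3). These groups did not overlap either, as for 12.1% of genes in this direction. The change of 0.76 (SE 0.24, adjusted p = 0.0804) did not pass the test, although the 3 same-numbered pairs differed by 0.81, 0.70 and 0.78. Same-numbered ethanol and tamoxifen samples deviated together, and with the number as a block the change was called (adjusted p = 0.00174), as were 19.9% of all genes under that block. It was also called without background correction (0.0434) and from the authors' table (0.0274).

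The Dppa3 levels ran from ESC in ethanol through EpiLC in ethanol and ESC in tamoxifen to EpiLC in tamoxifen, and each neighbouring pair of groups overlapped. EpiLC differed from ESC by 0.33 in ethanol (SE 0.24, adjusted p = 0.251) and by 0.21 in tamoxifen (SE 0.24, adjusted p = 0.468), neither past the threshold. The tamoxifen effects in the 2 cell states differed by -0.12 (SE 0.34, adjusted p = 0.893), and the SE leaves room for a difference of either sign.

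**Figure D3:**
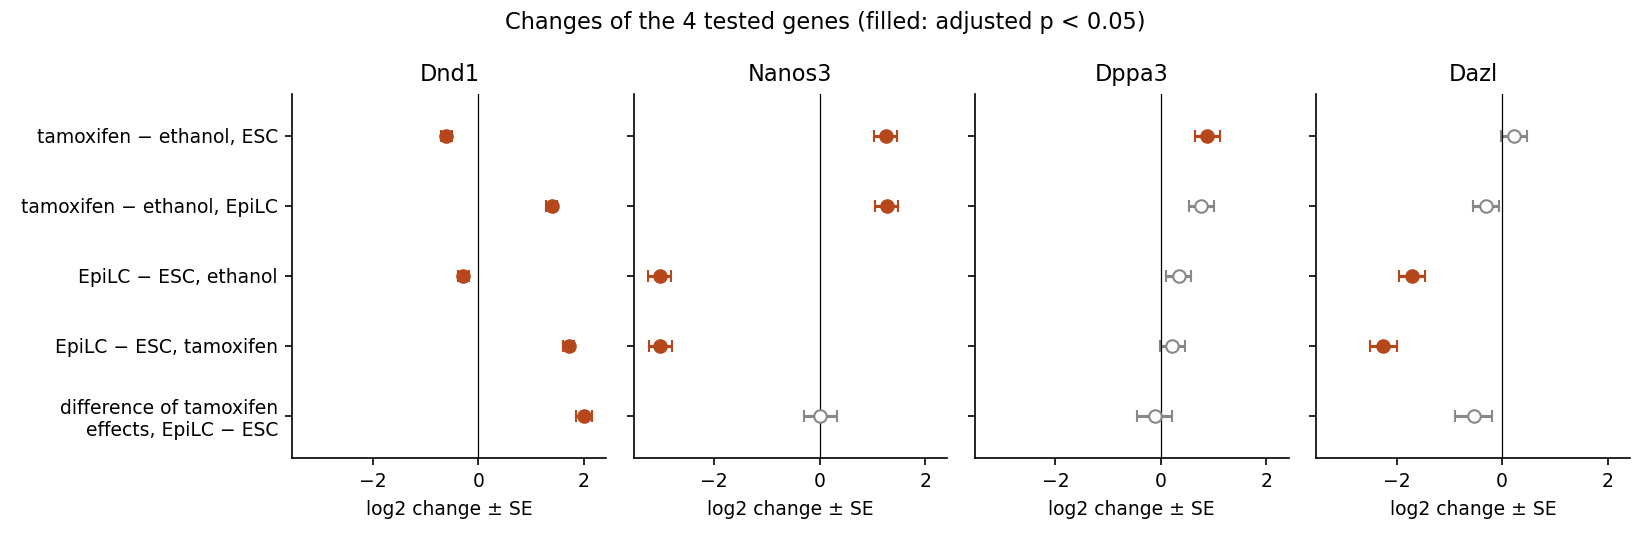
Log2 changes with their standard errors for Dnd1, Nanos3, Dppa3 and Dazl in the 5 comparisons (n = 3 samples per group); filled symbols have an adjusted p under 0.05. Dnd1 lies on opposite sides of 0 in the 2 tamoxifen comparisons, and the Nanos3 points that involve EpiLC in ethanol are fitted values for a group that was not well above background.

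Dazl, a translational regulator that commits germ cells to gametogenesis, had 1 probe, ILMN_2634147, detected on 18 of 19 arrays. Its values were 8.51, 8.93 and 8.72 in ESC in ethanol (mean 8.72, SD 0.21, n = 3) and 8.66, 9.06 and 9.12 in ESC in tamoxifen (mean 8.95, SD 0.25, n = 3), which overlapped. In EpiLC they were 7.07, 7.37 and 6.59 in ethanol (mean 7.01, SD 0.40, n = 3) and 7.10, 6.82 and 6.17 in tamoxifen (mean 6.70, SD 0.48, n = 3), which overlapped too. The tamoxifen change was 0.23 in ESC (SE 0.25, adjusted p = 0.636) and -0.31 in EpiLC (SE 0.25, adjusted p = 0.518). Neither passed the test.

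Between the cell states Dazl fell. In ethanol the EpiLC level was below the ESC level (log2 change -1.71, SE 0.25, adjusted p = 0.000113), or 3.28-fold, and in tamoxifen (log2 change -2.25, SE 0.25, adjusted p = 1.30e-05), or 4.75-fold. The highest EpiLC sample, 7.37, was below the lowest ESC sample, 8.51. Groups that did not overlap in this direction were common, at 29.2% of genes in ethanol and 30.6% in tamoxifen. Without background correction these changes were -1.02 and -1.34, and from the authors' table -0.98 and -1.37, all called. The interaction was -0.54 (SE 0.35, adjusted p = 0.490).

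Prdm1, the zinc-finger repressor that starts germ cell specification, was measured by 2 probes, ILMN_2597923 and ILMN_2744650. Neither was detected on any of the 19 arrays at a detection p under 0.01, and their lowest detection p-values were 0.0664 and 0.465. Raw intensities were 129 to 204 for the first and 123 to 185 for the second. Sycp3, of the meiotic chromosome axis, was likewise at background on all 19 arrays, where its smallest detection p was 0.185, with intensities of 130 to 175. Neither gene therefore had a level in these cells above the negative control beads, which sets a limit of detection and does not show that the RNA was absent. In a fit with no filter on dim probes, which took the brighter Prdm1 probe, ILMN_2597923, its tamoxifen changes were -0.05 in ESC and 0.23 in EpiLC (adjusted p = 0.911 and 0.376). The other Prdm1 probe had means of 4.49 in ethanol and 4.51 in tamoxifen in ESC, and of 4.53 and 4.50 in EpiLC. In the same fit Sycp3 changed by -0.06 in ESC and 0.03 in EpiLC (adjusted p = 0.868 and 0.921).

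The Foxd3 probe, which would check the deletion, did not rise above background on any of the 19 arrays (lowest detection p 0.239), and so the deletion is taken from the labels. Between 40.2% and 44.7% of probes were detected per array. The cell state labels were borne out by their markers. The summed normalized intensity of 8 naive markers was 44040 to 45762 in ESC in ethanol, 42732 to 43283 in ESC in tamoxifen, 3362 to 4916 in EpiLC in ethanol and 4696 to 6453 in EpiLC in tamoxifen. That of 8 EpiLC markers was 7528 to 8560, 7109 to 9028, 34861 to 36025 and 29424 to 32363 in the same order. Fgf5, the usual epiblast marker, was detected on no ESC array. Of the naive markers, Prdm14 and Nr0b1 were detected in no group, and neither were Dnmt3a and Sox3 of the EpiLC markers.

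Naive markers and markers of other cell types moved with tamoxifen beside the members. Of all genes tested, 5.58% were called higher and 3.50% lower in ESC, and 4.74% and 2.17% in EpiLC. With samples blocked by number, 21.6% were called in ESC and 19.9% in EpiLC, in either direction. Of the 6 naive markers tested in EpiLC, where Nanos3 and Dnd1 rose, 2 were called higher and 0 lower (4 higher with samples blocked by number), with a list median of 0.47. In ESC, 1 was called higher and 1 lower. Of the 6 EpiLC markers tested, 1 was called higher in EpiLC and 1 lower, with a list median of -0.05. The higher one was Fgf5 (log2 change 0.45, adjusted p = 0.0152) and the lower one Dnmt3b. In ESC, 1 of the EpiLC markers was called higher and 0 lower, with a median of -0.11. The summed intensity of 9 trophoblast markers was 3662 to 4679 in EpiLC in ethanol and 7033 to 10825 in EpiLC in tamoxifen, where Dnd1 and Nanos3 rose, and 5 of the 6 tested were called higher. Elf5 and Hand1, of that list, were detected in neither EpiLC group. In ESC the sum was 1136 to 1219 in ethanol and 1326 to 1475 in tamoxifen, and 1 of 6 was called higher. For 7 two-cell-like markers, all detected in every group, the sums were 11949 to 13503 in ESC in ethanol and 16808 to 18253 in ESC in tamoxifen, with 6 of 7 called higher, and 19061 to 26212 and 26298 to 31184 in EpiLC, with 3 of 7 called higher. The sums of 8 primitive endoderm markers were 1112 to 1492 and 2277 to 2684 in ESC, where 2 of 3 tested were called higher, and 2041 to 2238 and 2087 to 2748 in EpiLC, where 0 of 3 were called in either direction. Gata4 and Foxa2, of that list, were detected in no group. Sox17, Sox7 and Pdgfra were detected in EpiLC in tamoxifen only, on too few arrays to be tested. Of the 6 haematopoietic markers on the array, Ptprc, Gata1, Tal1 and Runx1 were detected in no group, and the list's sum was 190 to 222 over all samples. The sum of 9 fibroblast and stroma markers was 2182 to 2361 in ESC in ethanol and 1394 to 1716 in ESC in tamoxifen, where 1 of 3 tested, Vim, was called lower (log2 change -0.62, adjusted p = 0.00727), and 1454 to 1654 and 1512 to 1853 in EpiLC, where 0 of 3 were called. Of that list, Col1a1, Col1a2, Col3a1, Postn, Lum and S100a4 were detected in no group. The part of all these markers in the changes of Dnd1, Nanos3 and Dppa3 was not tested.

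Related genes were taken from 7 lists. Beside the counts of each list below, 5.58% of all genes were called higher and 3.50% lower in ESC. In EpiLC these shares were 4.74% and 2.17%. With samples blocked by number, 21.6% of all genes were called in ESC and 19.9% in EpiLC, in either direction. Of 15 factors of germ cell specification, 14 were tested. In ESC, 2 were called higher with tamoxifen and 0 lower (4 and 0 with samples blocked by number), with a list median of -0.01 against -0.01 over all genes. In EpiLC, 4 were called higher and 0 lower, beside 4.74% of all genes called higher, with a list median of 0.47 against -0.02 over all genes. With the block, 10 were called higher, beside 19.9% of all genes called in either direction. Klf2, Esrrb and Zfp42 are also among the naive markers. The specification and naive lists have the same EpiLC median of 0.47, so these medians are not separate observations. Tfap2c (AP-2γ), a core specification factor that trophoblast also expresses, rose in both states and under every alternative. Its ESC values went from 11.61, 11.86 and 11.84 to 12.69, 12.70 and 12.84, a rise of 0.98 (SE 0.17, adjusted p = 0.00434). Its EpiLC values went from 10.70, 11.36 and 11.25 to 12.39, 12.79 and 12.73, a rise of 1.53 (SE 0.17, adjusted p = 0.000592). The groups did not overlap in either state, as was so for 16.7% of genes in ESC and 12.1% in EpiLC in this direction.

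Ifitm3 (fragilis), an interferon-induced membrane protein of early germ cells, rose in EpiLC by 0.59 (SE 0.09, adjusted p = 0.00359), from a mean of 12.10 (SD 0.13, n = 3) to 12.68 (SD 0.11, n = 3). Rhox6, a homeobox gene of the X-linked Rhox cluster, rose by 0.78 in ESC (SE 0.20, adjusted p = 0.0347) and by 0.92 in EpiLC (SE 0.20, adjusted p = 0.0216). Klf2, a naive pluripotency factor that was put in the same list, rose by 0.54 in EpiLC (SE 0.13, adjusted p = 0.0258). The Ifitm3 call held under every alternative. Rhox6 in ESC changed by 0.44 without background correction (adjusted p = 0.0688) and was lost in 9 of 20 alternatives, 5 of them the omission of a single sample (any but ESC ethanol sample 2 of the ESC samples, adjusted p 0.057 to 0.127). In EpiLC it was lost in 4 of 19, including the omission of ethanol sample 1 or 2 or of tamoxifen sample 3 (adjusted p 0.053 to 0.0751). Klf2 was lost in 6 of 19, including the omission of EpiLC ethanol sample 1 or 3 or of tamoxifen sample 2 or 3 (adjusted p 0.0798 to 0.0856).

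Of 15 genes linked to the inducing signals (ligands, receptors, Smad proteins and the transcription factors T, Eomes and Otx2), 10 were tested. In ESC, 1 was called higher and 0 lower (list median 0.14), and in EpiLC 0 were called in either direction (median 0.00); with the block, 3 were higher in ESC and in EpiLC 2 were higher and 1 lower. The ESC call was Otx2, a transcription factor that restrains entry into the germ line, which rose by 0.65 (SE 0.18, adjusted p = 0.0431), from 7.84, 7.76 and 8.02 to 8.49, 8.49 and 8.61. It was lost in 12 of 20 alternatives, 8 of them the omission of a single sample, among them each of the 6 ESC samples (adjusted p 0.0557 to 0.129).

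Of 19 RNA regulators related to Nanos and Dnd1, such as Pumilio proteins and subunits of the CCR4-NOT complex, 14 were tested. None was called in ESC, against 9.09% of all genes, and 1 was called in EpiLC, where the list median was -0.10; with the block, 3 were higher and 1 lower in ESC. The called gene was Nanos1, the neural relative of Nanos3, which rose by 0.44 (SE 0.11, adjusted p = 0.0325). Its EpiLC values were 8.74, 8.72 and 8.80 in ethanol and 9.43, 9.05 and 9.11 in tamoxifen. The call was lost in 8 of 19 alternatives, 6 of them the omission of a single sample (ESC ethanol sample 2 or any EpiLC sample but tamoxifen sample 2, adjusted p 0.0505 to 0.0853).

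Of 26 genes of the later germ line, to which Dazl belongs by role, 15 were tested. In ESC, 2 were called higher and 0 lower, with a list median of 0.27, and in EpiLC 1 was called higher and 1 lower, with a median of 0.00; with the block, 5 were higher and 0 lower in ESC, and 5 higher and 1 lower in EpiLC. Dpep3, a membrane dipeptidase of testis, was detected on 0 of 5 ESC ethanol arrays and on 6 of 6 ESC tamoxifen arrays, where it was at least 1.23-fold higher on the background-corrected scale (adjusted p = 0.00595, and 0.0916 on round 2 arrays). Piwil2, a piRNA-binding protein, rose by 0.86 in ESC (SE 0.23, adjusted p = 0.0425). In EpiLC, Tdrd7 rose by 0.84 (SE 0.21, adjusted p = 0.0374) and Tdrd6 fell by 0.49 (SE 0.13, adjusted p = 0.0422). Both are Tudor-domain proteins of germ granules. The Piwil2 call was lost in 10 of 20 alternatives, the Tdrd7 call in 8 of 19 and the Tdrd6 call in 15 of 19. Of these, 7, 7 and 10 were the omission of a single sample (adjusted p up to 0.145, 0.118 and 0.139). The omitted samples included each ESC sample for Piwil2 and each EpiLC sample for Tdrd7. Those for Tdrd6 were the 6 ESC samples and EpiLC sample 1 or 2 in ethanol and 1 or 3 in tamoxifen. The Tdrd6 call was also lost with arrays scaled to equal medians (0.141), from the authors' table (0.103), with no filter on dim probes (0.057) and on round 1 arrays (0.214). Tdrd6 was detected on 3 of 3 EpiLC arrays in ethanol and 2 of 5 in tamoxifen, so its tamoxifen level lay near the floor. Without background correction the fitted changes were smaller, for Dpep3 below that bound: 0.27 for Dpep3, 0.35 for Piwil2, 0.42 for Tdrd7 and -0.15 for Tdrd6, the last with an adjusted p of 0.155.

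Of 22 meiosis genes, the group of Sycp3, only 7 were detected often enough to be tested. In ESC, 1 was called higher and 0 lower (median -0.04), and in EpiLC 0 in either direction (median 0.11); with the block, 1 was higher and 1 lower in ESC and 1 higher in EpiLC. Rec8, a meiotic cohesin subunit, rose by 0.76 in ESC (SE 0.16, adjusted p = 0.0149), from 8.54, 8.74 and 8.85 to 9.22, 9.54 and 9.65. The call was lost on round 1 arrays (adjusted p = 0.181) and without ESC ethanol sample 1 or ESC tamoxifen sample 2 or 3 (0.0536 to 0.0622).

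Of 19 repressors of germline genes, all on the array, 16 were tested, none was called in ESC and 1 was called lower in EpiLC, with list medians of -0.05 and -0.09; with the block, 2 were lower in ESC, and 1 was higher and 1 lower in EpiLC. The called gene was Dnmt3b, a de novo DNA methyltransferase, which fell by 0.41 (SE 0.10, adjusted p = 0.0389). Its EpiLC values were 14.64, 14.65 and 14.61 in ethanol and 14.19, 14.33 and 14.16 in tamoxifen. The call was lost in 10 of 19 alternatives, 9 of them the omission of a single sample, among them each of the 6 EpiLC samples (adjusted p 0.0522 to 0.129). With the mean of its probes in place of the brightest, the change was -0.66 (adjusted p = 0.00120). Of 18 genes of Kit ligand and signalling, 10 were tested and 0 were called in either tamoxifen comparison, with medians of 0.02 and 0.19, and 1 was called higher in EpiLC with the block; Kitl itself was on the array but not detected often enough to be tested.

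**Figure D4:**
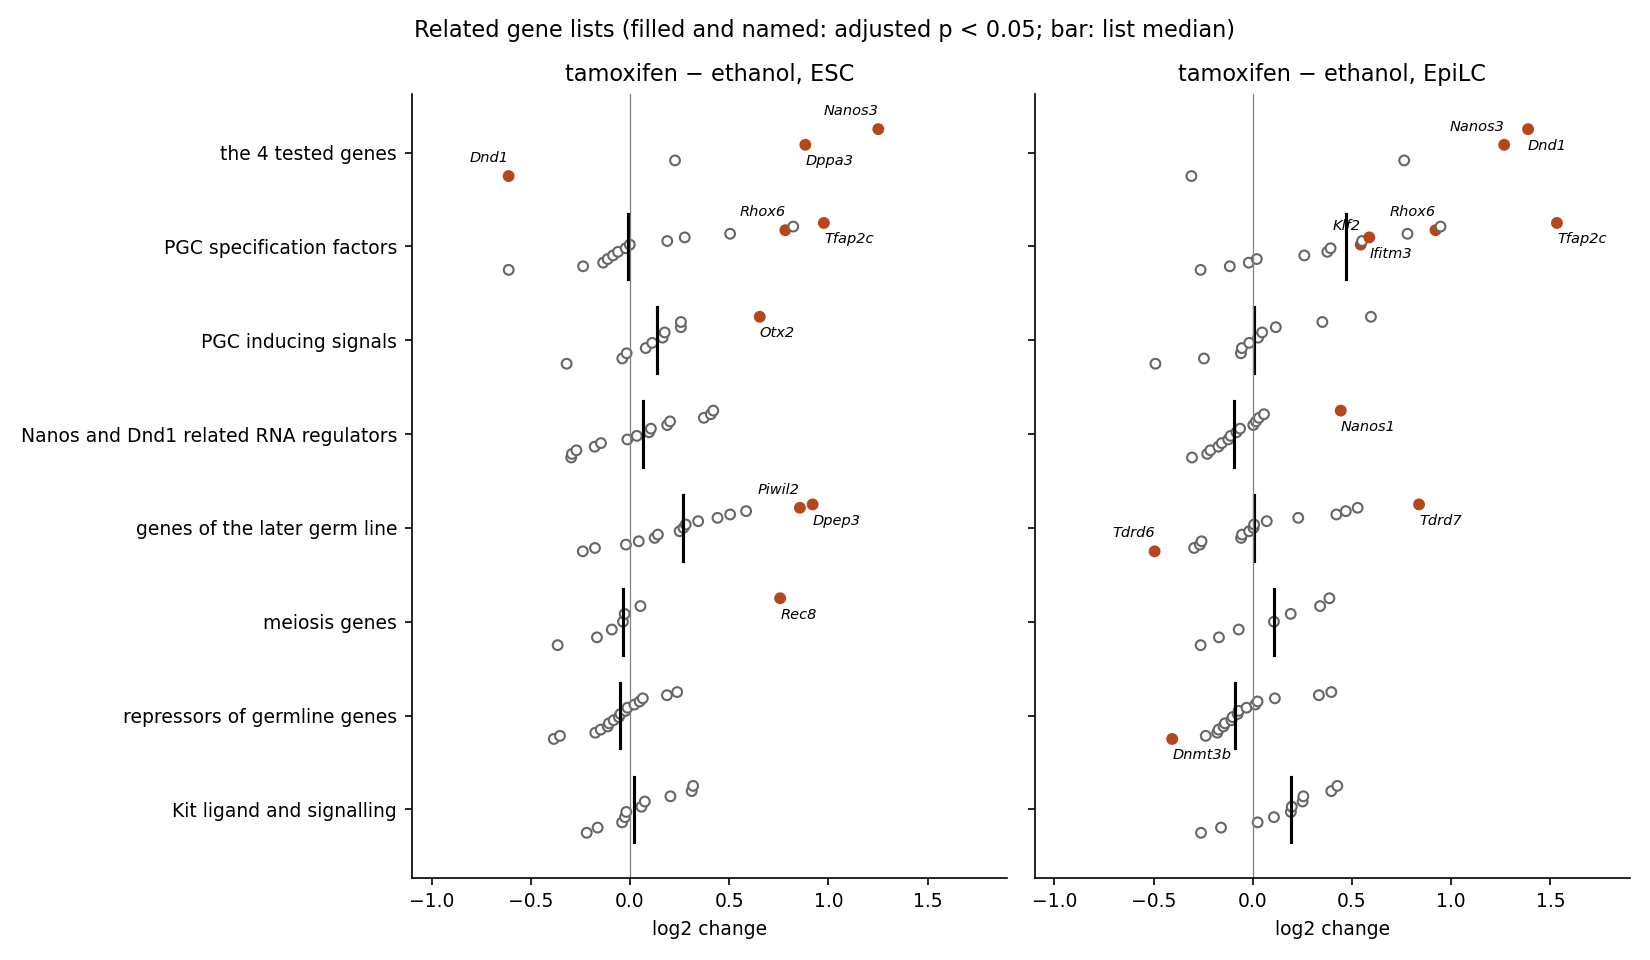
Log2 changes with tamoxifen in ESC and in EpiLC for the 4 tested members and the tested genes of the 7 lists; filled, named points have an adjusted p under 0.05 and black bars are list medians. Tfap2c rises in both panels, and most genes of the lists lie near 0.

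For each member called with tamoxifen, the 3 genes whose values were most like it over the 12 samples were picked by Pearson correlation, as a description without a test. Dnd1 was most like Lasp1 (r = 0.93), Rbms1 (0.93) and Nrd1 (0.91). Lasp1 and Rbms1 rose with tamoxifen in EpiLC, by 0.56 (adjusted p = 0.00370) and 0.71 (0.00341), and in ESC their changes of -0.09 and -0.07 did not pass the test. Nanos3 was most like Lrrc28 (r = 0.99), Psap (0.99) and Tmem184b (0.99). Lrrc28 and Psap rose with tamoxifen in ESC, by 0.45 (adjusted p = 0.00550) and 0.33 (0.0264), and in EpiLC, by 0.30 (0.0453) and 0.44 (0.00797). Tmem184b rose in ESC by 0.28 (adjusted p = 0.0321), and its EpiLC change of 0.19 did not pass the test. Dppa3 was most like Dyrk1b (r = 0.95), Igf2r (0.94) and Ctns (0.93), none of which was called in a tamoxifen comparison. All these correlations share the 4 groups and the same arrays. Among the members, Nanos3 and Dazl correlated at 0.88 over the 12 samples and at 0.42 once the group means were removed. Dnd1 and Nanos3 correlated at -0.39 (-0.44 without the group means), and Dnd1 and Dazl at -0.62 (0.21).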

How the data were processed

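Per the labels, total RNA of 12 samples was hybridized to 19 Illumina bead arrays in 2 rounds. For each probe on each array, the deposited raw table holds a linear bead intensity that is not normalized, per the file headers, a detection p-value, a standard error over beads and a bead number. The authors deposited a further table of normalized intensity, for which the submitters' processing notes name limma without version or method; 10 of its values were below 0, and values under 1 were set to 1 before log2. Probe names came from the platform's annotation: 23978 of 25697 probes carried 1 symbol and 0 carried several.

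From the deposited intensity, log2 values were computed with neqc (limma 3.58.1, R 4.3.3, offset 16, background from the detection p-values). A fit of sample plus round gave 1 value per sample. The filter kept 12529 probes, those detected (p under 0.01) on 3 or more of the 19 arrays, and the brightest probe of each gene gave 9422 features. Groups were compared in 5 contrasts with lmFit and eBayes, adjusted over all features, on 3 samples per group. The number of arrays limits the precision, and an exact permutation of 3 against 3 samples cannot go below p = 0.1. The code was tested on simulated data. For a gene undetected on all arrays of the dimmer group, the fold is a bound on the background-corrected scale: the mean of the brighter group over the dimmer one, raised on each array to its lowest detected signal.

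The members, gene lists and tests were chosen with earlier results of these data known. Named genes are the members, up to 4 called genes per list and contrast, the 3 genes most correlated with each called member, and Foxd3. Ethanol and tamoxifen samples of the same number deviated together from their group means, with correlations of 0.37 to 0.47 in ESC and 0.50 to 0.57 in EpiLC, so the numbers pair these samples; across the cell states the correlations were 0.06 to 0.25. Alternatives were a block on the sample number, equal-median scaling, no background correction, the authors' table, no filter on dim probes, the mean of a gene's probes, each round alone and leaving out each sample. Sequences are RefSeq promoters of GRCm38.p6.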

Additional observations from a re-analysis of the deposited data

Results flagged for a closer look

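The tamoxifen effect on Dnd1 differed between the cell states in the interaction test, by 2.00 on the log2 scale, EpiLC minus ESC (SE 0.15, adjusted p = 0.000284 from limma), with the 3 same-numbered pairs lower with tamoxifen in ESC and the 3 pairs higher in EpiLC.

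For Dpep3 the tamoxifen effects differed by -1.19 (SE 0.24, adjusted p = 0.0261). The gene was detected on 0 of 3 and 0 of 5 EpiLC arrays in ethanol and tamoxifen, so this difference rests on its detection in ESC in tamoxifen alone, and its size fell to -0.35 without background correction and -0.34 with the authors' values. The call was lost in 10 of 19 alternatives, which were the fit without background correction (adjusted p = 0.0625) and the omission of any single sample except ESC ethanol sample 2, EpiLC ethanol sample 3 and EpiLC tamoxifen sample 2 (0.0531 to 0.0715).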

How the results depend on the processing

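The numbers of members called moved by at most 1 in each comparison: 2 to 3 of 4 for both tamoxifen effects and for the cell states in ethanol, 3 for the cell states in tamoxifen, and 1 for the difference. Counts over all genes moved more. With the replicate block, 2039 genes were called in ESC, 1876 in EpiLC and 1147 for the difference, against 856, 651 and 244 without it; it changed the call of 1 member, Dppa3 in EpiLC. On round 1 arrays the counts were 390, 336 and 61, and the authors' normalized values gave 1071 in EpiLC and 396 for the difference. Leaving out single samples gave 523 to 896 in ESC, 351 to 616 in EpiLC and 108 to 198 for the difference. Equal-median scaling moved the median change of all genes to 0.09 in ESC, -0.09 in EpiLC and -0.18 for the difference, and the higher and lower calls from 526 and 330 to 795 and 120 in ESC, from 447 and 204 to 315 and 243 in EpiLC, from 2770 and 2556 to 2096 and 3007 for EpiLC against ESC in tamoxifen, and from 133 and 111 to 78 and 259 for the difference. The difference for Nanos3 turned to -0.24 with that scaling, -0.48 without background correction and -0.24 from the authors' table, and lay between -0.20 and 0.20 with single samples left out; that for Dppa3 lay between -0.31 and 0.083. The cause of these shifts was not tested. Round 2 alone gives no value for comparisons with EpiLC in ethanol, which has no array there. Signal over background limits Nanos3 in EpiLC, and Prdm1, Sycp3 and Foxd3 everywhere.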
